A study of Macaca mulatta with 45 samples.

Results

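PLA2G2A encodes group IIA secreted phospholipase A2, and it was described here across 45 bead arrays of fat from adult male rhesus monkeys. It was chosen by its measured intensities on these arrays, as the gene with the largest rise over time in subcutaneous fat on a high-fat, high-sucrose diet, among 12130 genes of that comparison. The deposited intensity table holds 1 probe of it (ILMN_1740586, designed on the human transcript) among 20046 genes with a probe. The 24 monkeys were 7 to 13 years old, all ate a closed formula chow before the diets, and all groups were fed equal calories, per the labels. In the standard-diet group (SD, 4 animals) 13% of energy came from fat and less than 5% of weight was sucrose. In the HFS group (10 animals) these were 42% and about 27%. The remaining 10 animals received HFS and, in a treat, resveratrol, a compound of grapes, with a daily dose of 80 mg for 1 year that was then raised to 480 mg. Animals without resveratrol were given a placebo treat. Subcutaneous fat was measured at baseline on 4 SD, 10 HFS and 10 resveratrol arrays, and after 24 months on 2, 5 and 4 arrays. Visceral fat was measured after 24 months on 2, 4 and 4 arrays. The animals of the baseline groups had not yet been given the diet that names their group.

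The enzyme splits phospholipids into a fatty acid, which can be arachidonic acid, and a lysophospholipid. Arachidonic acid feeds the prostaglandins and leukotrienes, and the lysophospholipids are signals or their precursors. The protein is secreted, rises in blood during inflammation, is induced by inflammatory cytokines and kills Gram-positive bacteria by breaking down their membranes. In fat, phospholipases of this family also act on lipoproteins and on the membranes of cells in the tissue.

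Values are normalized log2 intensities, in which a difference of 1 is a doubling of signal, with standard deviations (SD after ±) over the arrays of a group. The arrays carry probes for human transcripts, so a probe's level depends on how well the monkey sequence fits it, and PLA2G2A was set against itself in other arrays and not against other genes. Between 14386 and 18673 probes were detected per array, which means a deposited detection p under 0.05. The count differed between groups. In subcutaneous fat at 24 months it was 17117 to 18673 with resveratrol, 15712 to 16322 on HFS and 16315 to 17197 on SD. In the resveratrol group at baseline it was 14386 to 17579. The subcutaneous arrays formed 2 sets of unlike brightness, with median signals of 48.47 to 59 in set A (19 arrays) and 77.8 to 97.3 in set B (16 arrays). All 11 subcutaneous arrays of 24 months lay in set A, together with 8 baseline arrays (2 SD, 3 HFS and 3 resveratrol). Within set A the median signals were 54.34 to 59 at baseline and 48.47 to 54.48 at 24 months, so brightness differed by time there too. The 10 visceral arrays had median signals of 55.5 to 62.2 and form a separate set, so depot and set cannot be told apart. The adipocyte genes PLIN1, which coats lipid droplets, and LEP, the hormone leptin, were detected on 35 of 35 subcutaneous and 10 of 10 visceral arrays. ADIPOQ, the adipocyte hormone adiponectin, was detected on 0 of 35 subcutaneous and 5 of 10 visceral arrays, all with values at or under 5.55. The mesothelial keratin KRT19 was detected on 10 of 10 visceral and 0 of 35 subcutaneous arrays. The mesothelial markers MSLN and WT1 were each detected on 10 of 10 visceral and 1 of 35 subcutaneous arrays. The markers CALB2 and UPK3B went the other way. CALB2 was detected on 35 of 35 subcutaneous and 9 of 10 visceral arrays, and UPK3B on 16 of 35 and 1 of 10. Mesothelium is the cell layer that covers visceral organs and fat.

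PLA2G2A was detected on 42 of the 45 arrays, and the 3 without a detected signal were set B arrays of baseline. It was among the most variable genes between arrays of the same group. Its residual standard deviation within groups was 1.23 in subcutaneous fat, against a median of 0.36 over all genes, and ranked 102 of 12130. In visceral fat it was 1.51, against a median of 0.32, and ranked 54 of 11657.

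From the lowest to the highest group mean, PLA2G2A stood at 6.08 ± 1.05 at baseline in the SD group (n = 4), 6.35 ± 1.46 at baseline in the HFS group (n = 10) and 6.65 ± 1.05 at baseline in the resveratrol group (n = 10). Subcutaneous fat at 24 months followed with 8.59 ± 0.87 with resveratrol (n = 4) and 8.75 ± 0.94 on SD (n = 2). Visceral fat with resveratrol came next, at 9.25 ± 1.80 (n = 4). Subcutaneous fat on HFS at 24 months was at 10.15 ± 1.43 (n = 5). Visceral fat on HFS was at 11.19 ± 1.44 (n = 4) and on SD at 12.07 ± 0.08 (n = 2). The ranges of neighbouring groups in this order overlapped at each step. The 3 baseline groups were lowest, and the 11 subcutaneous values at 24 months lay between 7.62 and 11.46 against 4.79 to 10.02 over all 24 baseline arrays.

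**Figure D1:**
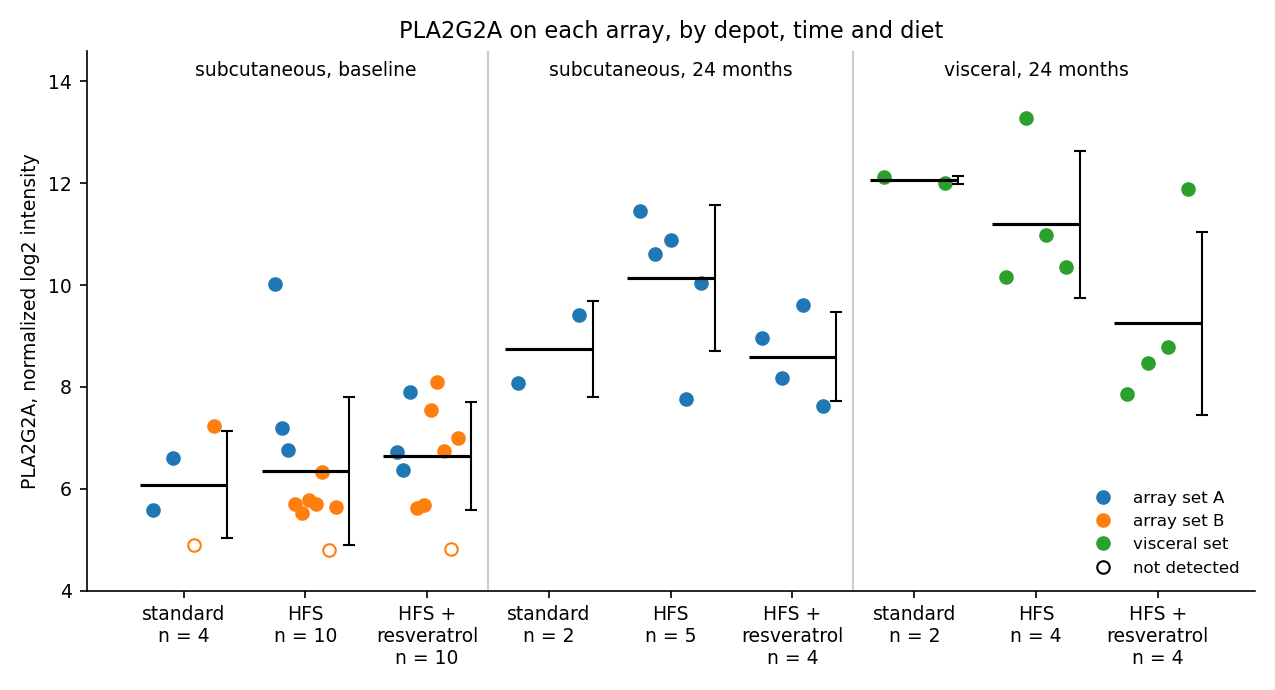
PLA2G2A as normalized log2 intensity (vertical axis) on each of the 45 arrays, by depot, time and diet. Points are arrays, coloured by array set and open where the probe was not detected, horizontal lines are group means and bars are standard deviations. Baseline values lie lowest, HFS baseline replicate 1 stands apart at 10.02, and the visceral SD arrays lie at 12.12 and 12.01.

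On the HFS diet, the comparison by which the gene was chosen, the baseline arrays had a lowest value of 4.79, a median of 5.75 and a highest of 10.02. After 24 months the values were 11.46, 10.61, 10.88, 7.75 and 10.03 in replicates 1 to 5. The high baseline value belonged to replicate 1, whose animal was also the highest at 24 months, and the low value at 24 months belonged to replicate 4. The group means differed by log2 3.80 ± 0.63 (standard error of the fit), or 13.9-fold, which is given as a description without a test. The next genes in that order were COMP, a cartilage matrix protein, at 2.83 ± 0.90, and GRP, a secreted peptide, at 2.49 ± 0.75. Of the 12130 genes 1.01% passed in that comparison, 0.668% as higher. With set A arrays alone, which leave 3 baseline arrays, the difference was 2.15 ± 0.77. Without HFS baseline replicate 1 it was 4.21.

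On the standard diet the baseline values were 5.58, 6.61, 4.89 and 7.24 in replicates 1 to 4, and the values after 24 months were 8.08 and 9.41. Both later values lay above all 4 baseline values. The difference was log2 2.67 ± 1.0, or 6.36-fold, and did not pass in the unpaired fit (limma, adjusted p = 0.503, unadjusted p = 0.0116). Of 12130 genes, 0% passed in that comparison and 954 had an unadjusted p under 0.05, and PLA2G2A had the 3rd largest rise. The exact permutation test of the 2 against 4 arrays gave p = 0.0667, two-sided, which is the smallest it can give. Replicate numbers 1 and 2 are the same animals at both times, and with the replicate number as a block the rise was 2.66 ± 0.30 and passed (limma, adjusted p = 0.000163), where 4.54% of genes passed. That fit holds 2 pairs, and its estimate of error leans on the other genes.

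With resveratrol the baseline values had a lowest of 4.82, a median of 6.73 and a highest of 8.10. After 24 months replicates 1 to 4 were at 8.97, 8.18, 9.60 and 7.62. All 4 lay above the baseline mean, and replicate 4 lay inside the range of the baseline arrays. The difference was log2 1.94 ± 0.68, or 3.85-fold, and fell short of the threshold (limma, adjusted p = 0.0595, unadjusted p = 0.00749), in a comparison where 11.4% of genes passed, 6.92% as higher and 4.45% as lower. The exact permutation test gave p = 0.00799, two-sided, or 0.0719 after adjustment over the 9 tested comparisons. With the replicate number as a block, which joins arrays of 1 animal in 3 of 4 pairs, the difference was 1.94 ± 0.22 and passed (limma, adjusted p = 0.0124), where 4.58% of genes passed. With only the arrays of the 4 animals measured at both times and the animal as a block it was 2.14 ± 0.28 (limma, adjusted p = 0.0272). With the array set as a block it was 1.13 ± 0.72 (limma, adjusted p = 0.386), and among set A arrays alone 1.59 ± 0.81 (limma, adjusted p = 0.294).

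The animals measured at both times carry this comparison without the differences between animals. PLA2G2A was higher at 24 months than at baseline in 11 of 11 of them. The smallest change was 1.44 and the largest 4.11, both on HFS, and the mean was 2.60 ± 0.86. On HFS the 5 animals were higher by 1.44, 3.41, 4.11, 2.05 and 3.71. With resveratrol the 4 animals were higher by 2.24, 1.81, 1.70 and 2.80, and on SD the 2 animals by 2.51 and 2.80. The smallest of the 11 changes was in the animal whose baseline value was 10.02. In the 6 animals not on HFS alone, whose arrays the rule of choice did not use, the mean change was 2.31 ± 0.48. An exact sign-flip test of these changes gave p = 0.0312, two-sided, the smallest that 6 animals allow. This test was chosen after the values were seen. With 6 of 6 changes already seen to be above 0 it could give no other value, so it adds no support. In the 5 of these 6 animals with both arrays in set A, the mean was 2.21 ± 0.46 with 5 of 5 higher, where p cannot go below 0.0625. The direction in the 5 HFS animals follows from the choice of the gene and adds no support. Whether its size differed between diets was not tested, since the HFS arrays chose the gene.

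**Figure D2:**
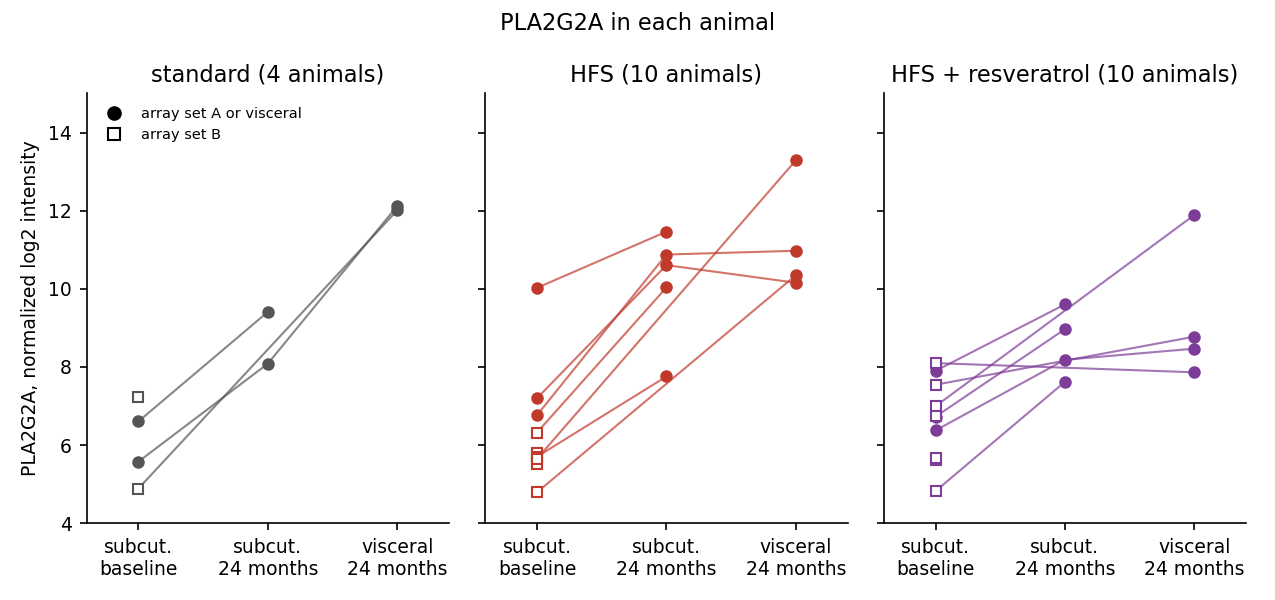
PLA2G2A as normalized log2 intensity (vertical axis) in each animal, with lines joining the arrays of an animal over subcutaneous fat at baseline, subcutaneous fat at 24 months and visceral fat at 24 months (horizontal axis), in a panel for each diet. Open squares are baseline arrays of set B. Lines from baseline to 24 months in subcutaneous fat go up in 11 of 11 animals.

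The normalized baseline mean over all diets was 7.15 ± 1.34 in set A (8 arrays) and 6.07 ± 0.99 in set B (16 arrays). Raw intensities before normalization showed the change within set A as well. Set A alone does not fully separate time from array brightness, since its arrays of 24 months were mostly dimmer than its baseline arrays. In SD replicate 1 the intensity went from 78.1 to 197.1, in HFS replicate 3 from 131.2 to 1186 and in resveratrol replicate 2 from 86.0 to 396.9. Across sets the raw values also carry the difference in brightness. HFS replicate 4 had an intensity of 155.6 at baseline on a set B array and 180.2 at 24 months on a set A array, while its normalized value rose by 2.05.

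**Figure D3:**
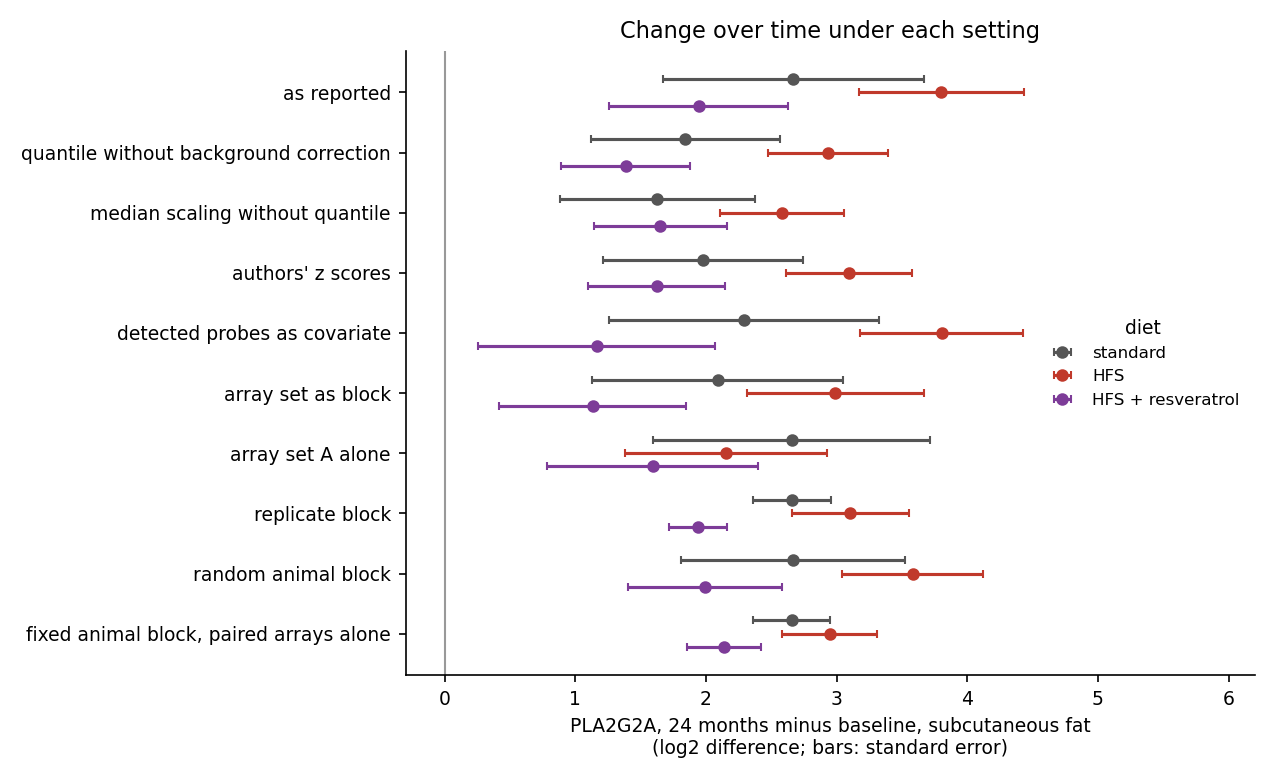
Change of PLA2G2A over 24 months in subcutaneous fat (horizontal axis, log2 difference with its standard error) under the reported fit and 9 other settings (vertical axis), coloured by diet. All points lie above 0, between 1.13 for resveratrol with array set as block and 3.80 for HFS.

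Between groups at the same time in subcutaneous fat, no tested difference passed. At baseline the resveratrol group was at log2 0.57 ± 0.68 relative to the SD group (limma, adjusted p = 1), in a comparison where 0.00824% of genes passed, and the HFS group at 0.27 ± 0.68, given without a test. At 24 months the resveratrol group was at -0.15 ± 1.0 relative to SD (limma, adjusted p = 0.992), where 0.791% of genes passed. That sign turned with other scalings, to 0.54 with median scaling and 0.11 with the deposited scores. It also turned when 1 array was left out, and was 0.51 without SD replicate 2. The HFS group was at 1.40 ± 0.97 relative to SD at 24 months. The resveratrol group was at -1.55 ± 0.77 relative to HFS at 24 months, in a comparison where 2.23% of genes passed. Both hold the HFS arrays that chose the gene and are given without a test. HFS replicate 4, at 7.75, lay among the resveratrol arrays, and the highest resveratrol array, at 9.60, lay below the other 4 HFS arrays.

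In visceral fat PLA2G2A was at 12.12 and 12.01 on SD, at 10.16, 13.29, 10.97 and 10.35 on HFS, and at 7.86, 8.47, 8.77 and 11.89 with resveratrol. Of the resveratrol arrays 3 lay below all other visceral arrays, and replicate 4 lay above 3 of the 4 HFS arrays. No difference between diets passed. HFS was at -0.87 ± 1.05 relative to SD (limma, adjusted p = 0.918), with 0.00858% of 11657 genes passing. With the number of detected probes as a covariate it was -0.15. Resveratrol was at -1.94 ± 0.86 relative to HFS (limma, adjusted p = 0.201, unadjusted p = 0.0441), with 0% of genes passing by limma and 2765 at an unadjusted p under 0.05, and the exact permutation test gave p = 0.143. It was the 6th largest fall in that comparison. Without resveratrol replicate 4 this difference was -2.82, and without HFS replicate 2 it was -1.24. Resveratrol was at -2.82 ± 1.05 relative to SD (limma, adjusted p = 0.468, unadjusted p = 0.0210), with 0.00858% of genes passing. All 4 resveratrol arrays lay below both SD arrays, and the exact permutation test gave p = 0.133, where the smallest it can give is 0.0667.

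Between depots at 24 months, visceral fat was above subcutaneous fat by 3.32 ± 1.22 on SD (limma, adjusted p = 0.149), where 2.39% of genes passed and both visceral values lay above both subcutaneous ones. With resveratrol the difference was 0.66 ± 0.86 (limma, adjusted p = 0.597), where 35.8% of genes passed. It became -0.22 without visceral resveratrol replicate 4. On HFS it was 1.04 ± 0.82, given without a test, where 18.7% of genes passed. Only 4 animals had both depots measured at 24 months. Visceral minus subcutaneous fat was 4.04 in the SD animal, -0.45 and 0.10 in the HFS animals and 0.28 in the resveratrol animal. Compared with the animal's own subcutaneous fat at baseline, visceral fat was higher in 9 of 10 animals, and lower by 0.23 in visceral resveratrol replicate 1.

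PLA2G2A lies in a cluster of secreted phospholipase genes. In the RefSeq gene table of rhesus assembly T2T-MMU8v2.0 the order on chromosome 1 is PLA2G2C, PLA2G2F, PLA2G2D, PLA2G5, PLA2G2A and PLA2G2E. That table was used for gene order alone, since it is not the build of the arrays. PLA2G2C has no probe on the array. PLA2G2E and PLA2G2F, group II relatives, were detected on 0 of 45 arrays, and PLA2G5, a group V enzyme, on 4 of 45. PLA2G2D, which acts in lymphoid cells in mice, has a probe detected on 45 of 45 arrays and a second, dim probe detected on 19. The brighter PLA2G2D probe moved over 24 months by 0.22 ± 0.19 with resveratrol (limma, adjusted p = 0.503) and by 0.53 ± 0.18 on HFS (limma, adjusted p = 0.140). In visceral against subcutaneous fat it fell by 1.56 ± 0.22 with resveratrol (limma, adjusted p = 8.78e-07) and by 1.03 ± 0.21 on HFS (limma, adjusted p = 0.000485), while the PLA2G2A differences there were 0.66 and 1.04. Of the listed secreted phospholipases and their receptor, 5 could be tested in subcutaneous fat, and 0 passed over time on any of the 3 diets, by limma. Only 2 of the 5 met the detection filter at both times. Over all genes 11.4% passed with resveratrol, 0% on SD and 1.01% on HFS, so a count of 0 among so few genes says little about the family. At an unadjusted p under 0.05 were PLA2G2D on HFS and PLA2G12B with resveratrol, the latter detected on 4 of 10 arrays at baseline and 0 of 4 at 24 months. PLA2R1, the receptor that binds and clears secreted phospholipases in mice, was detected on 45 of 45 arrays and was at 0.40 ± 0.41 over time on HFS (limma, adjusted p = 0.694).

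The intracellular phospholipases were tested beside it. PLA2G4C, a membrane-bound cytosolic phospholipase A2, rose over 24 months with resveratrol by 1.75 ± 0.25 (limma, adjusted p = 8.89e-06) and on HFS by 0.97 ± 0.23 (limma, adjusted p = 0.0319), and was at 1.25 ± 0.36 on SD (limma, adjusted p = 0.320). Of 9 tested members, 7 met the detection filter at both times, and of these PLA2G4C alone passed with resveratrol and on HFS, and 0 passed on SD. The shares over all genes were 11.4% with resveratrol, 1.01% on HFS and 0% on SD. The median change of the 7 with resveratrol was 0.08, against -0.05 over all genes. PLA2G4A, which releases arachidonic acid inside cells, was detected on 2 of 4 resveratrol arrays at 24 months and on no other array, so it entered the fit only through that group and is not counted.

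Downstream of the phospholipases, the eicosanoid synthesis list had 15 tested members, of which 2 rose and 1 fell with resveratrol over 24 months, and 0 passed on SD or HFS. Over all genes 6.92% passed as higher and 4.45% as lower with resveratrol, 0% passed on SD and 1.01% on HFS. With so few members these counts say little about the list. PTGS2, the inducible prostaglandin synthase, rose by 1.65 ± 0.33 (limma, adjusted p = 0.000873) and was at 1.59 ± 0.48 on SD (limma, adjusted p = 0.341). PTGES3, a co-chaperone that also has prostaglandin E synthase activity, rose by 1.78 ± 0.35 (limma, adjusted p = 0.000882). ALOX5, which starts leukotriene synthesis, fell (limma, adjusted p = 0.0174) from 5.31, with 9 of 10 baseline arrays detected, to a level not above background on any of 4 arrays. The median of the list was 0.15 with resveratrol, 0.47 on SD and 0.00 on HFS. Of 12 tested receptors for eicosanoids and lysophospholipids, 7 met the detection filter at both times, and 0 of these passed on any diet by limma. PTGER2, a prostaglandin receptor, was detected only on 2 of 4 resveratrol arrays at 24 months and is not counted.

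Upstream, the list of acute phase and inflammatory signalling genes had 13 tested members. With resveratrol CCL2, which attracts monocytes, rose by 2.00 ± 0.64 (limma, adjusted p = 0.0380), the cytokine IL6 rose by 1.28 ± 0.42 (limma, adjusted p = 0.0418) and CEBPB, a transcription factor of the acute phase, fell by 1.13 ± 0.30 (limma, adjusted p = 0.0134). On SD and HFS 0 of the 13 passed by limma, with medians of 0.23 and 0.00. IL6 was at 1.38 ± 0.39 on HFS (limma, adjusted p = 0.0713) and 1.32 ± 0.61 on SD (limma, adjusted p = 0.601). The acute phase genes SAA1 and SAA2 were detected on 0 of 45 arrays. Of 6 tested genes of antibacterial proteins and sensors, 5 met the detection filter at both times, and of these 2 rose with resveratrol and 0 on SD or HFS. LYZ, the antibacterial enzyme lysozyme, rose by 1.74 ± 0.51 (limma, adjusted p = 0.0214), and TLR4, the sensor of bacterial lipopolysaccharide, by 1.36 ± 0.46 (limma, adjusted p = 0.0492). TLR2, a sensor of bacterial lipoproteins, was detected on no baseline array and is not counted. In visceral fat 0 members of these 6 lists passed between diets, where at most 0.00858% of all genes did. The array-set blocks given for PLA2G2A were not run for these genes. Over time 11.4% of all genes passed with resveratrol, 0% on SD and 1.01% on HFS.

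Genes with the pattern most like PLA2G2A were ranked by Pearson r of normalized log2 values over the 35 subcutaneous arrays, which share the time of sampling and the array sets with it. The median r over 12129 genes was -0.01 and the 99th percentile 0.61. The 8 highest were MOXD1, a monooxygenase-like protein (r = 0.77), TIAM2, an activator of the GTPase Rac (0.75), C3, the central complement protein (0.74), MUCL1, a small secreted mucin-like protein (0.74), TNFRSF9, a costimulatory receptor of T cells (0.74), FPR3, a formyl peptide receptor of monocytes (0.73), BATF, a transcription factor of lymphocytes (0.73), and CXXC4, an inhibitor of Wnt signalling (0.73). These genes were mostly dim. Among the 35 subcutaneous arrays C3 was detected on 21, MOXD1 on 18, FPR3 on 15 and TNFRSF9 on 5, and the other values lie near the floor of the arrays. Within set A the r of C3 was 0.78 (19 arrays) and within set B 0.50 (16 arrays), while MOXD1 had 0.71 and -0.15. In the 20 subcutaneous arrays not of the HFS group, r was 0.67 for C3 and 0.70 for MOXD1. With the group means taken out, which removes the shared change over time, the r of the 8 genes was lower. It ran from 0.38 for CXXC4 and 0.43 for BATF to 0.65 for MOXD1, with 0.56 for C3.

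Most of these genes did not keep the pattern in visceral fat, where over 10 arrays the r was -0.12 for C3 and 0.03 for MOXD1. Ranked by the lower of the r in the 2 depots, the first 5 of 10869 genes were FPR3, the pseudogene TPTE2P6, RSPO1, which amplifies Wnt signals, IL6 and ARID5B, a chromatin cofactor of adipocyte formation. FPR3 had r = 0.73 in subcutaneous and 0.77 in visceral fat, RSPO1 0.66 and 0.80, IL6 0.64 and 0.71, and ARID5B 0.64 and 0.69. TPTE2P6 was detected on 4 of 35 subcutaneous and 1 of 10 visceral arrays, so its likeness rests largely on undetected values. RSPO1 was detected on 6 of 35 subcutaneous arrays, where the same holds, and on 10 of 10 visceral arrays, at 6.88 to 10.09. Within set B r was 0.15 for FPR3 and -0.04 for IL6. With the group means taken out, the subcutaneous r was 0.46 for FPR3, 0.34 for TPTE2P6, 0.35 for RSPO1, 0.30 for IL6 and 0.47 for ARID5B. FPR3 was at 7.16, 7.39, 6.91 and 6.31 in visceral HFS replicates 1 to 4 and at 5.27, 5.79, 5.93 and 6.89 in the resveratrol replicates. Resveratrol replicate 4, high for PLA2G2A, was also the highest resveratrol array for FPR3 and, at 7.94, for IL6. In subcutaneous fat the r of IL6 was 0.50 without the 2 arrays farthest from the median of PLA2G2A.

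**Figure D4:**
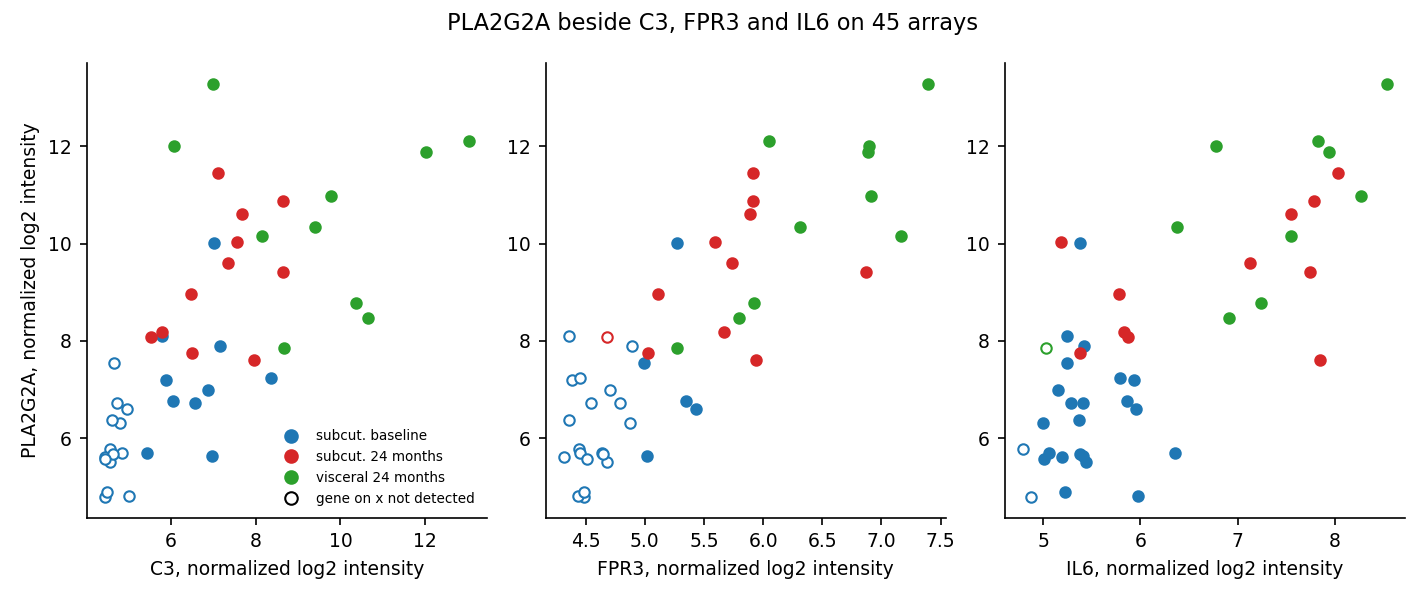
PLA2G2A (vertical axis) against C3, FPR3 and IL6 (horizontal axes), all as normalized log2 intensity, on 45 arrays coloured by depot and time and open where the gene on the horizontal axis was not detected. Values of FPR3 and IL6 go up with PLA2G2A in both depots, and C3 does so in subcutaneous fat.

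Markers of other cells moved with the gene, and in pieces of tissue fewer cells of a type and less RNA per cell cannot be told apart. F13A1, a transglutaminase of macrophages, met the detection filter only with resveratrol at 24 months and is not counted. In subcutaneous fat the other 12 of 12 tested macrophage markers were above 0 over 24 months on each of the 3 diets, with medians of 1.26 with resveratrol, 1.02 on SD and 0.79 on HFS. Of these 12 markers 3 passed as higher with resveratrol, where 6.92% of all genes did, among them CD163, a scavenger receptor, at 1.98 ± 0.47 (limma, adjusted p = 0.00526), and 0 passed on SD or HFS. The summed level of all 14 markers ranged from log2 11.04 to 14.66 at baseline, and at 24 months from 13.67 to 14.88 on SD, 13.996 to 14.28 on HFS and 13.88 to 14.51 with resveratrol. MRC1, a macrophage lectin, was detected on no array of any group. Over the 35 arrays the summed level had r = 0.53 with PLA2G2A, and the HFS baseline arrays with the highest sums held PLA2G2A at 5.52 and 5.65. T and natural killer cell markers had r = 0.58, skin and gland epithelium markers 0.55, fibroblast and progenitor markers 0.05 and erythroid markers -0.41. The T and natural killer cell sum ranged only from log2 8.37 to 9.47 over 11 markers. Its members CD3E and GZMB were detected on no subcutaneous array. The skin and gland list holds LYZ, which was detected on 35 of 35 arrays at 9.66 to 13.79. The sum of that list did not exceed 13.87, so its r leans on LYZ. The erythroid marker SLC4A1 met the detection filter at 1 time only and is not counted. Of the other 6 tested erythroid markers, 0 were above 0 over 24 months with resveratrol (median -0.83) and 0 on SD (median -1.50). On HFS 1 of the 6 was above 0 (median -1.37), and 0 passed by limma on any diet. Genes of the immediate early and heat shock response, which handling of tissue can induce, were above 0 in 9 of 11 with resveratrol (median 0.93, 2 passing as higher), in 11 of 11 on SD (median 0.72, 0 passing) and in 6 of 11 on HFS (median 0.03, 0 passing). The part of these cells and of handling in the rise was not tested.

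In visceral fat the list whose summed level had the highest r with PLA2G2A was that of the mesothelium, and the lowest was that of the endothelium (r = -0.62, rho = -0.59, 10 arrays). The summed level of mesothelial markers ran from 12.27 to 12.95 on SD, 10.01 to 11.79 on HFS and 10.15 to 11.72 with resveratrol, with r = 0.71 and rho = 0.78 over 10 arrays. MSLN, a mesothelial surface protein, was at 9.86 and 7.71 on SD, and resveratrol replicate 4 was at 8.72, between them. The PLA2G2A means of the resveratrol and HFS groups differed by -1.94. The median change of the 11 tested markers between them was 0.06, against -0.08 over all genes, and 0 passed. In the same comparison T and natural killer cell markers were below 0 in 8 of 9 (median -0.51) and adipocyte markers in 9 of 10 (median -0.40). Smooth muscle and pericyte markers were above 0 in 8 of 9 (median 0.83) and endothelial markers in 7 of 9 (median 0.57). None of these markers passed by limma, as 0% of all genes did. In subcutaneous fat the summed level of the mesothelial markers had r = -0.51 with PLA2G2A, and MSLN was detected on 1 of 35 arrays. The highest sum there was 11.48. CALB2 alone ranged from 6.40 to 11.33 and was detected on 35 of 35 arrays, so this r leans on CALB2. Macrophage markers had r = -0.16 in visceral fat. The part of these cells in the visceral values was not tested.

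**Figure D5:**
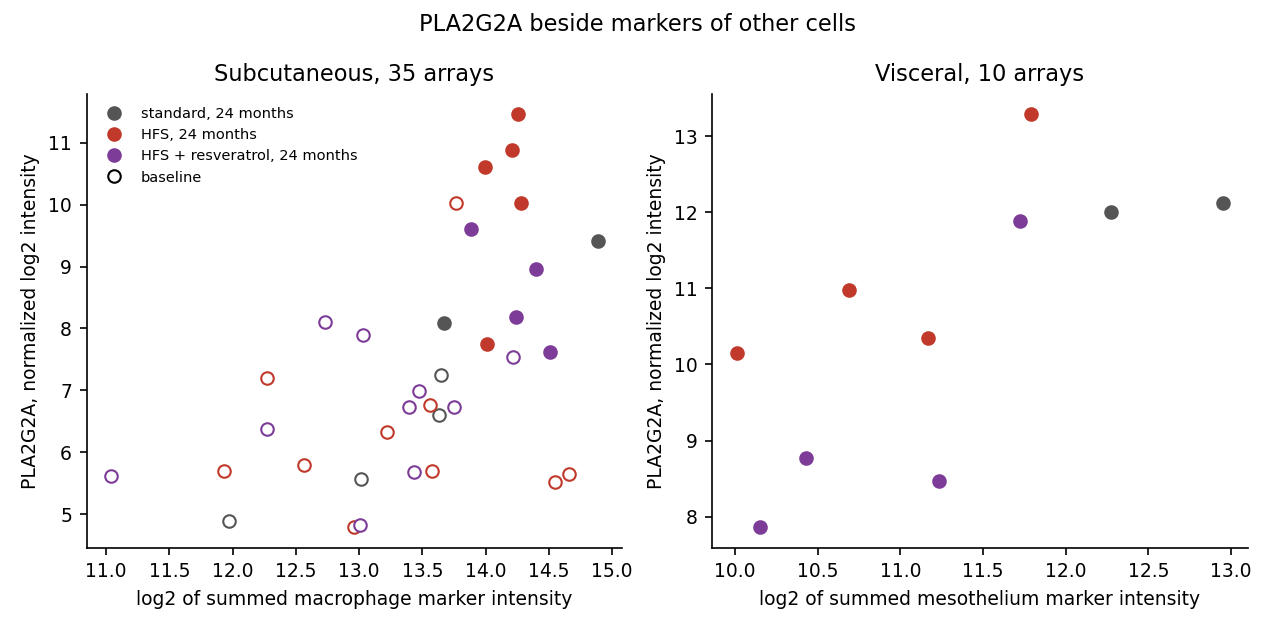
PLA2G2A (vertical axes, normalized log2 intensity) against the log2 of the summed intensity of 14 macrophage markers on 35 subcutaneous arrays (left) and of 12 mesothelial markers on 10 visceral arrays (right), coloured by diet, with baseline arrays open. The visceral SD arrays lie at the right, at sums of 12.27 and 12.95.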

How the data were processed

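Per the labels, RNA of rhesus fat was hybridised to human bead arrays. The authors deposited a linear intensity for each of 47323 probes, exported with GenomeStudio 1.9.0 per the submitters' processing notes, with a detection p-value beside it, per the file headers. They also deposited a score per probe, which equals the log intensity standardized within an array to within 5.00e-10. Here the intensities of the 47231 filled probes were background corrected and quantile normalized over 45 arrays (neqc, offset 16, then log2, in limma 3.58.1 under R 4.3.3). A probe entered a fit if some group detected it on no fewer arrays than not, and the brightest probe stood for a gene. Fits held 1 mean per group: 35 subcutaneous arrays, 10 visceral arrays or all 45 for depots. They used lmFit and eBayes with a variance trend, with Benjamini-Hochberg adjustment within each comparison and a threshold of 0.05. Of 14 comparisons 9 were tested, and the 5 that hold HFS subcutaneous arrays were described. The pipeline was tested on simulated data. The gene, the lists and the rule for naming genes were chosen with earlier results of these data known. By that rule the text names list members that passed or had the smallest p, the 8 and 5 genes most like PLA2G2A, and the next genes by rise. Marker sums of a list were added on the linear scale.

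Animals were read from the deposited column names, where 25 names stand for 24 animals, and 2 spellings were joined. Of 11 pairs of the same number over time, 9 were 1 animal. Across genes, residuals of the arrays of an animal correlated at 0.00 to 0.48, with 9 of 11 above 0.1. Arrays of a group came from different animals. The number of arrays limits the precision.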

Additional observations from a re-analysis of the deposited data

Results flagged for a closer look

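PLA2G2A in HFS baseline replicate 1 was at 10.02, while the other 9 HFS baseline arrays lay between 4.79 and 7.20. The gap to the next array was 0.54 of the range of the group, above the critical value of Dixon's test for a group of 10. The array lay in set A with 17203 probes detected, and the same animal had the highest subcutaneous value at 24 months, 11.46. Chance flags about 1 in 20 groups, and 7 groups were looked at.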

How the results depend on the processing

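PLA2G2A was higher at 24 months on each of the 3 diets under every alternative run. With resveratrol, where the reported difference of 1.94 missed the threshold, it passed with median scaling (1.65, adjusted p = 0.0216), the deposited scores (1.62, 0.0323), a random animal block (1.99, 0.0207), only the 2 groups compared (1.94, 0.0287), the replicate block (1.94, 0.0124) and a fixed animal block (2.14, 0.0272), all by limma. It did not pass with the array-set block (1.13, 0.386), set A alone (1.59, 0.294), detected probes as a covariate (1.16, 0.581), no background correction (1.39, 0.0663), the depot normalized alone (1.93, 0.0596) or no filter on dim probes (1.94, 0.0734). Genes passing there were 1379 as reported and 94 to 1927 otherwise. On SD it passed with the replicate block (2.66, limma adjusted p = 0.000163) and the fixed animal block (2.66, limma adjusted p = 1.48e-07), and 0 to 758 genes passed. Both blocks rest on the same 2 pairs, and their estimates of error lean on the other genes. On HFS set A alone gave 2.15, and 0 to 543 genes passed against 122. The HFS difference from SD at baseline was 1.9 in set A alone. Resveratrol against SD at 24 months turned from -0.15 to 0.54 with median scaling and 0.11 with the deposited scores. With detected probes as a covariate HFS against SD in visceral fat went from -0.87 to -0.15 and resveratrol against HFS from -1.94 to -2.91. In visceral fat resveratrol against SD passed with the replicate block (-3.90, limma adjusted p = 0.0461), as did the depots on SD (3.32, limma adjusted p = 7.14e-05). Same-numbered visceral arrays of different diets are different animals, and 1 of the 2 SD numbers joins 1 animal across depots, so those numbers pair nothing or little. In the other tested comparisons the replicate block changed no call for PLA2G2A.

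Leaving out 1 array gave 1.61 to 2.27 over time with resveratrol (limma, adjusted p = 0.0221 without HFS baseline replicate 1 to 0.199), 2.01 to 3.33 on SD and 3.47 to 4.40 on HFS. It gave -0.82 to 0.51 for resveratrol against SD at 24 months, with 0.17 without resveratrol replicate 4, and 0.17 to 0.96 at baseline. It gave -2.15 to -1.23 for resveratrol against HFS at 24 months, 0.74 to 2.06 for HFS against SD at 24 months and -0.14 to 0.66 at baseline, the lowest without HFS replicate 1. In visceral fat it gave -1.57 to -0.53 for HFS against SD, -2.82 to -1.24 for resveratrol against HFS, where 0 to 1537 genes passed, and -3.70 to -2.35 for resveratrol against SD. Between depots it gave -0.22 to 1.12 with resveratrol, 2.66 to 3.98 on SD and 0.35 to 1.39 on HFS. The other-probe alternative could not be run, since 1 probe measures the gene. Signals near background limit the baseline values, and 3 of 24 were not detected.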
